A study of Mus musculus with 5 samples.

Results

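The regions described here are stretches of heart chromatin carrying histone H3 propionylated at lysine 23 (H3K23Pr) to which no gene was assigned. They were chosen from the merged region table as the regions with an empty gene list, no promoter, no CpG island and a length under 30 kb (30000 bp). This gave 6431 of 30965 regions (20.8%), covering 37.1 of 290.1 Mb. The chromatin came from hearts of 12 week old C57Bl/6J males and was read by ChIP-seq (immunoprecipitation of the mark followed by sequencing). Mice received a BCAA-control diet, or a BCAA-free diet lacking the branched-chain amino acids leucine, isoleucine and valine, from 4 days before surgery. Surgery was either sham or TAC (transverse aortic constriction), a narrowing of the aorta that puts the left ventricle under pressure load, and hearts were taken 2 weeks later. The 4 libraries were BCAA-control sham, BCAA-control TAC, BCAA-free sham and BCAA-free TAC, each a single pool of 3 hearts. Every difference below therefore lies between pools, with no replicate check and no p-value. For 3 samples the treatment field goes against the title, and titles were used. A further library of pooled input has no column in the table.

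Distal regulatory elements such as enhancers lie far from the genes they act on and carry acylated histones where they are active, and many differ between cell types of one tissue. Propionylation of histone lysines uses propionyl-CoA, which the heart makes when it breaks down valine and isoleucine, so a diet without these amino acids bears on the supply of the donor. Propionyl-CoA also comes from odd-chain fatty acids and from the gut microbiota. A region is given here with its nearest protein-coding gene as a position only; which gene a distal region acts on was not measured.

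Few of these regions held a listed transcription start. RefSeq starts were listed in 536 of the 6431 regions (8.33%), and 516 of those regions held the start of a long non-coding RNA (lncRNA). Among the regions named here, 4 held such a start, and the sequence from 250 bases before to 50 after each start is shown because it is the part of a named region with a reference sequence here. Capitals mark matches to AGATAA (the GATA factor motif) or TATAAA (the TATA box) on either strand. Sequences are from RefSeq on GRCm38.p6.
Gm34240, RefSeq lncRNA start on GRCm38.p6, chr3:63439001-63439300, plus strand: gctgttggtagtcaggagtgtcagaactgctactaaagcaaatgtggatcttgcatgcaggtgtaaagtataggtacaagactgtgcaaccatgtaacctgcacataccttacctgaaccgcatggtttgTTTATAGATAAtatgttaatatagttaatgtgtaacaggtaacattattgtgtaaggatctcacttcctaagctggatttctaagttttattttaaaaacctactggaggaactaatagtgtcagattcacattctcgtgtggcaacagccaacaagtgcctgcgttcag
Gm26795, RefSeq lncRNA start on GRCm38.p6, chr8:28593280-28593579, plus strand: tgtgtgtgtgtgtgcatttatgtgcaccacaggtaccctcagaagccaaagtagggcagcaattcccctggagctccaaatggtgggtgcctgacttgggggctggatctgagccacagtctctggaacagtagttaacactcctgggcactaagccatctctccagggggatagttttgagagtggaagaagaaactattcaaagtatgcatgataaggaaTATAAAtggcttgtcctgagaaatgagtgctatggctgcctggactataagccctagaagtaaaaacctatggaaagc
Gm33502, RefSeq lncRNA start on GRCm38.p6, chr16:30793172-30793471, plus strand: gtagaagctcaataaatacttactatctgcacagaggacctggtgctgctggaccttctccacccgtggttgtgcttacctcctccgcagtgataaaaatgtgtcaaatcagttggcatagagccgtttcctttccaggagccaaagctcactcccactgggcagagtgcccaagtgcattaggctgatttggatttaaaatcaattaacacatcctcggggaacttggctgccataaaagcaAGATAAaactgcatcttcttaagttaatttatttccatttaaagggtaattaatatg
Gm13470, RefSeq lncRNA start on GRCm38.p6, chr2:46442856-46443155, minus strand: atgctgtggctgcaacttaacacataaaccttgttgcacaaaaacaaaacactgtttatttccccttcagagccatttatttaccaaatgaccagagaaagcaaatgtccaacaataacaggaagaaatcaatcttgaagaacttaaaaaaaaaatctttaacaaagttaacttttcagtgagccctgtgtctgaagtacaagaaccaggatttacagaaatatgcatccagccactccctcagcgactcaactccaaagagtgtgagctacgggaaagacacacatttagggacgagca

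Gm34240 starts in a region that was lower after TAC on both diets, and Gm26795 in one that was higher after TAC on the BCAA-free diet. Gm33502 starts in one of the 5 regions with the highest signal, and Gm13470 in a region 1323558 bp from the nearest coding gene body. The Gm34240 sequence held a TATAAA match on the minus strand that shares a base with an AGATAA match, 120 and 115 bases before the start. A TATAAA match lay 28 bases before the start of Gm26795 and an AGATAA match 7 bases before that of Gm33502. The Gm13470 sequence held none of the 9 motifs searched on both strands, namely the GATA and TATA motifs above, the AP-1 motif with letters TGANTCA, the TEAD motif with letters GGAATG, the CRE with letters TGACGTCA, the E-box with letters CACGTG and, by name alone, the GRE, MEF2 and CArG motifs. A match describes the letters only, and a missing match says nothing of the factor. Over all 679 lncRNA starts in distal regions, 14.0% of the windows held AGATAA and 14.3% TATAAA, against 14.0% and 15.5% of all listed lncRNA starts and 11.2% and 13.6% of all 32851 listed starts. The share with AGATAA was thus that of lncRNA starts in general, and the share with TATAAA was below it. The AP-1 motif was in 11.8% of these windows, against 9.31% of all listed lncRNA starts and 7.81% of all listed starts. The TEAD motif was in 20.3%, against 16.6% and 14.7%. The median GC content of the windows was 48.7%, against 48.3% for all listed lncRNA starts and 56.3% for coding starts, and the CpG observed to expected ratio was 0.23, 0.24 and 0.57 in the same order. The choice of regions left out those with a CpG island, so the CpG values are a description.

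Of the listed miRNA genes, 5 hairpins lay in distal regions, and none of their 7 mature miRNAs shared a seed (bases 2 to 8, in capitals). They are shown because a miRNA gene is, like the lncRNA starts, an annotated element inside a region without an assigned gene.
mmu-miR-8096, chr1:85751983-85752002, plus strand: gGGCACGGuagcugaagagu
mmu-miR-7229-3p, chr5:113324493-113324516, minus strand: uACACAGAccagugacuuucugca
mmu-miR-7229-5p, chr5:113324525-113324545, minus strand: uAGUAGACaucccuggauagc
mmu-miR-6413, chr10:20297593-20297613, minus strand: uGGCUCAGaagagcagguagu
mmu-miR-7688-5p, chr10:93433107-93433129, plus strand: uAGCUGGGcaugaucugaugagc
mmu-miR-7688-3p, chr10:93433142-93433162, plus strand: uCUGGCUUaugccuagcuuuc
mmu-miR-7214-3p, chr17:27317035-27317058, minus strand: cUCAGUCCugaccccuugagcgca

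The region with mmu-miR-7688 had an average signal of 17.2 in BCAA-control sham, 20.7 in BCAA-control TAC, 11.9 in BCAA-free sham and 17.4 in BCAA-free TAC. The region with mmu-miR-8096 had 14.9, 19.2, 13.1 and 11.1 in the same order. In both, the control TAC library was the highest, as it was in the region with mmu-miR-7229 (8.77). The region with mmu-miR-6413 was instead highest in BCAA-free TAC (13.5) and that with mmu-miR-7214 in BCAA-free sham (9.26). ChIP signal over a miRNA gene does not give the level of the miRNA.

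The label of a distal region held for most members. The median distance to the nearest RefSeq coding gene body was 47303 bp (quartiles 20190 and 115695), 5944 regions lay at least 10 kb away and 105 at least 500 kb away. A coding gene body was nevertheless overlapped by 381 regions, and 4349 (67.6%) overlapped no RefSeq gene body of any kind. Distal regions were weaker and shorter than the table as a whole, and intragenic regions without promoter or CpG island had similar signal. The median average signal, a coverage value on the deposited scale, was 7.77 in BCAA-control sham, 8.20 in BCAA-control TAC, 7.93 in BCAA-free sham and 7.49 in BCAA-free TAC. The medians over all regions were 9.28, 10.2, 9.36 and 9.24, and those of intragenic regions without promoter or CpG island were 7.42, 7.60, 7.23 and 7.52. The longest member measured 29599 bp and the shortest distal region outside the length limit 30199 bp, and median signals were 11.9 over the 20 longest members and 13.4 over the 68 regions outside the limit.

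The authors called 64.4% of distal regions in BCAA-control sham, 71.8% in BCAA-control TAC, 65.8% in BCAA-free sham and 59.9% in BCAA-free TAC. Over all regions these shares were 76.7%, 83.1%, 76.1% and 73.6%. All 4 libraries shared 2418 distal regions (37.6%, against 58.3% of all regions), and 1882 were called in a single library (29.3%, against 18.8%). Of the latter, 228 were called in BCAA-control sham alone, 632 in BCAA-control TAC alone, 592 in BCAA-free sham alone and 430 in BCAA-free TAC alone. Intragenic regions without promoter or CpG island were similar, with 39.6% called in all 4 libraries and 28.4% in a single one. Regions called in 1 library had a median signal of 6.35 and those called in all 4 one of 10.1, so calls and signal level moved together. A median distal region held about 146 tags per library, against 252 over all regions, and the distal regions together held 8.63% to 9.43% of the tags that each library had in regions.

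The strongest distal regions lay above the 95th percentile of all regions, which was 21.2 to 26.8 across libraries. The strongest, chr9:122012000-122041199 near Pomgnt2, a glycosyltransferase of dystroglycan, had 43.6 in BCAA-control sham, 49 in BCAA-control TAC, 42.7 in BCAA-free sham and 47.9 in BCAA-free TAC. The region that holds the start of Gm33502, chr16:30783200-30801799, had 28.1, 36 in BCAA-control TAC, 26 and 30.5. Neither differed by as much as 1.5-fold in any comparison. Among the 3 longest members, chr14:63303600-63333199, 31888 bp from Gata4, a transcription factor of heart development, had 10.1, 10.2, 9.89 and 13.6, with BCAA-free TAC alone set apart. Across chromosomes, distal regions made up 14.5% of the regions on chromosome 7 and 29.8% on chromosome 13.

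After TAC on the control diet, more distal regions were higher than lower. A region was counted when log2 of the ratio of average signals, each plus 1, passed 1.5-fold. By this measure 473 of 6431 (7.36%) were higher and 256 (3.98%) lower, against 5.75% and 2.19% of all regions. Gene-flanking regions without promoter or CpG island had 7.42% higher and 2.50% lower, and such intragenic regions 5.91% and 3.79%. In every bin under 400 tags the distal share higher was below that of all regions. It was 21.8% against 24.4% under 50 tags, but 2.2% against 1.6% at 400 or more. The share lower was above that of all regions in every bin from 50 tags up. The median log2 ratio of distal regions was 0.06, against 0.16 over all regions. Relative to that shift the median was -0.09 and the counts turned round, to 255 higher and 557 lower. In whole-heart pools fewer cells of a type and less mark per cell cannot be told apart, here and in every comparison that follows.

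On the BCAA-free diet more distal regions passed 1.5-fold after TAC, and more were lower than higher. The counts were 813 higher (12.6%) and 1195 lower (18.6%), against 8.06% and 9.23% of all regions. The median log2 ratio was -0.06, against -0.03. Regions inside genes that also held no promoter or CpG island had a median of 0.08, with 13.1% higher and 10.3% lower. The shares moved with depth and were largest where tags were few. At 400 or more tags per library the share lower was still 12.1% of 1071 distal regions, against 5.30% of intragenic and 7.51% of gene-flanking regions. The shares higher in that bin were 7.10%, 9.66% and 8.71%. The bins were added after the data had been seen.

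**Figure D1:**
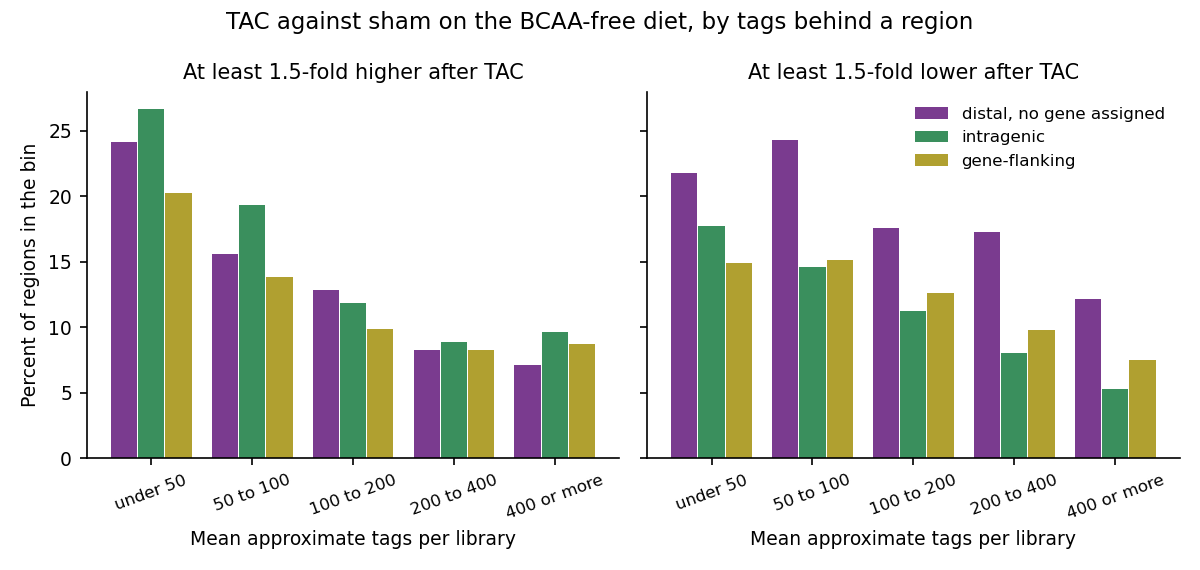
Percent of regions at least 1.5-fold higher (left) or lower (right) after TAC relative to sham with the BCAA-free diet, by the mean number of approximate tags behind a region, for distal regions without an assigned gene and for intragenic and gene-flanking regions without promoter or CpG island. Distal regions have the tallest bar for lower signal in all 5 bins, from 21.8% under 50 tags to 12.1% at 400 or more.

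Between the diets, fewer distal regions passed 1.5-fold in sham hearts than in TAC hearts. In sham hearts 408 distal regions (6.34%) were higher on the BCAA-free than on the BCAA-control diet and 283 (4.40%) lower, against 2.76% and 2.62% of all regions. The median was 0.02, against -0.01. In TAC hearts 379 (5.89%) were higher and 713 (11.1%) lower, against 3.82% and 9.42%. The median was -0.12, against -0.20. Relative to that shift the median was 0.08 and the counts were 804 higher and 261 lower. Gene-flanking regions without promoter or CpG island had 11.4% lower in TAC hearts, and such intragenic regions 6.78%. In every bin of tags the share of distal regions lower was below that of all regions. It was 28.0% against 31.6% under 50 tags and 2.05% against 3.18% at 400 or more. The log2 ratio after TAC was lower on the BCAA-free than on the control diet by a median difference of -0.16 over distal regions and -0.20 over all regions; when centred on all regions, the median difference over distal regions turned sign, to 0.02.

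Distance to genes went with some of these values. The 105 regions at least 500 kb from a coding gene had a median log2 ratio after TAC of -0.19 on the control diet and 0.09 on the BCAA-free diet, and 23.8% were higher on the BCAA-free than on the control diet in TAC hearts. The 2853 regions at 10 to 50 kb had 0.10 and -0.04, and 4.31%. The farthest regions also had the fewest tags, with a median of 84.5 against 153, and the part of depth in this difference was not tested. The farthest of all, chr10:16341000-16342799, 1380429 bp from Cited2, had 8.77 in BCAA-control sham, 2.56 in BCAA-control TAC, 4.72 in BCAA-free sham and 7.31 in BCAA-free TAC. Among the 3 farthest was also the one that holds the start of Gm13470, chr2:46441000-46446999, had 22.7, 15.9, 23.4 and 15.3. There both TAC libraries were below both sham libraries, at 1.43-fold lower (95% counting interval 1.26 to 1.62, which covers counting error only) on the control diet and 1.53-fold lower (1.35 to 1.74) on the BCAA-free diet.

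A set of distal regions was lower after TAC on both diets. The 2 comparisons use different libraries, and 129 regions passed 1.5-fold lower in both (2.01%, against 0.901% of all regions). They made up 50.4% of the 256 lower on the control diet and 10.8% of the 1195 lower on the BCAA-free diet. The like overlaps over all regions were 41.2% and 9.76%, close to these. The region with the start of Gm34240, chr3:63438000-63442199, lies 38896 bp from Strit1, which encodes the small membrane protein DWORF, an activator of the cardiac calcium pump. Its signal was 9.68 in BCAA-control sham, 4.93 in BCAA-control TAC, 14.6 in BCAA-free sham and 5.26 in BCAA-free TAC. Both sham libraries were high and both TAC libraries low, with ratios of 1.96-fold lower (1.51 to 2.53) on the control diet and 2.77-fold lower (2.19 to 3.52) on the BCAA-free diet.

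A region 88897 bp from Npr3, the clearance receptor for natriuretic peptides, had more tags behind it. This region, chr15:11740200-11750999, had 15.9 in BCAA-control sham, 8.15 in BCAA-control TAC, 20.02 in BCAA-free sham and 9.69 in BCAA-free TAC. Its signal was 1.95-fold lower (1.72 to 2.20) after TAC on the control diet and 2.07-fold lower (1.85 to 2.31) on the BCAA-free diet. The same order of libraries was seen at chr13:10653000-10654799, in the neighbourhood of the muscarinic receptor gene Chrm3, with 9.23, 4.40, 13.2 and 4.95. It was seen too at chr2:162852600-162856199 near Srsf6, a splicing factor gene, with 14.9, 8.04, 20.6 and 9.46, and at chr4:5128400-5133599 near Bpnt2, with 8.54, 4.18, 13.1 and 6.22. In all of these the BCAA-free sham library was the highest. Signal was also past 1.5-fold lower on the control diet at chr16:86240200-86255599, 339075 bp from Adamts5, an aggrecan-cleaving protease gene, with 9.57, 4.76, 11.2 and 7.22.

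A smaller set was higher after TAC on both diets, with 109 regions (1.69%, against 1.06% of all regions). The share was similar in gene-flanking (1.87%) and intragenic (1.53%) regions without promoter or CpG island. The 109 distal regions made up 23% of the 473 higher on the control diet and 13.4% of the 813 higher on the BCAA-free diet. The like overlaps over all regions were 18.5% and 13.2%. The region chr6:35422600-35427399, 81425 bp from Mtpn, which encodes the hypertrophy-linked protein myotrophin, had 5.04 in BCAA-control sham, 10.7 in BCAA-control TAC, 6.03 in BCAA-free sham and 15.1 in BCAA-free TAC. It was 2.12-fold higher (1.68 to 2.69) on the control diet and 2.50-fold higher (2.04 to 3.10) on the BCAA-free diet. A region 34215 bp from Ccn1, a matricellular gene induced by stretch, chr3:145684200-145685799, had 5.4, 11.8, 4.56 and 10.5. The region chr4:124639000-124647599 near Pou3f1, a transcription factor gene, had 5.22, 11.8, 6.39 and 13.8, with ratios of 2.26 (1.91 to 2.69) and 2.16 (1.86 to 2.53). The region chr13:71784200-71785599 near Irx1 had 6.51, 11.7, 5.30 and 13.1. In each of these both TAC libraries lay above both sham libraries, a pattern that the choice of regions favours. Opposite calls on the diets were rarer, with 12 regions higher on the control and lower on the BCAA-free diet and 24 the other way. These were 2.54% of the 473 higher and 9.38% of the 256 lower on the control diet, close to the 2.87% and 9.75% over all regions.

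**Figure D2:**
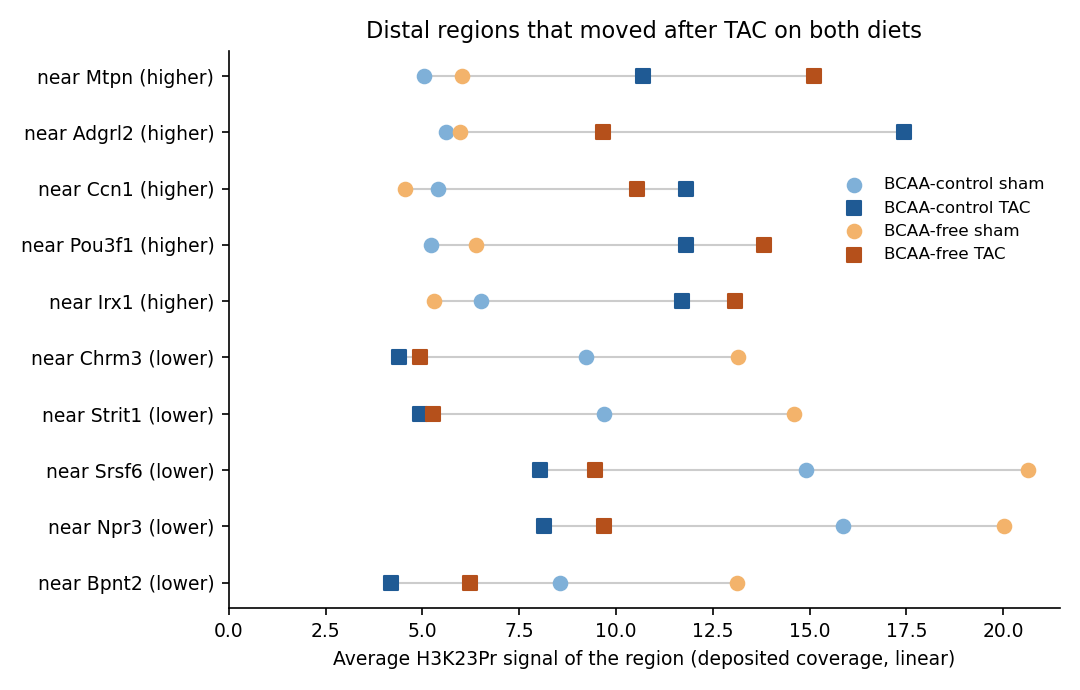
Average H3K23Pr signal (coverage, linear axis) of single distal regions in the 4 libraries, named by their nearest coding gene; circles are sham and squares TAC libraries, blue is the BCAA-control and orange the BCAA-free diet, with 1 pool of hearts per point. In the 5 upper rows both squares lie to the right of both circles and in the 5 lower rows to the left, and these regions were chosen for that pattern.

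Over all distal regions the 2 responses to TAC had the same sign in 3999 (62.2%), and Pearson's r was 0.35 (Spearman's rho 0.35, n = 6431 regions), against 54.5%, 0.26 and 0.22 over all 30965 regions. These are descriptions across regions, which share libraries, neighbours and depth.

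Other regions had their larger ratio after TAC on 1 diet. Among the highest ratios on the control diet was that at chr3:19406400-19408799, 95078 bp from Pde7a, a cAMP phosphodiesterase gene, with 4.24 in BCAA-control sham, 13.5 in BCAA-control TAC, 6.93 in BCAA-free sham and 6.95 in BCAA-free TAC. It was 3.18-fold higher (2.29 to 4.61) after TAC on the control diet and 1.00-fold (0.715 to 1.40) on the BCAA-free diet. A region 212504 bp from Adgrl2, an adhesion receptor gene, chr3:149201600-149204999, had 5.61, 17.4, 5.96 and 9.65. Regions near Metap2, a methionine aminopeptidase gene, and Cmya5, a striated muscle gene, had 8.55, 21.1, 7.16 and 10.4, and 5.25, 12.4, 6.61 and 8.85. In each of these the control TAC library was the highest of the 4, which the choice by the ratio on the control diet favours. On the BCAA-free diet the region with the start of Gm26795, chr8:28593000-28597199, had 10.9, 12.6, 6.55 and 17.1, a ratio of 2.62 (2.11 to 3.24) after TAC on that diet and of 1.15 (0.955 to 1.40) on the control diet.

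Among the lowest ratios after TAC on the BCAA-free diet was that at chr11:8364000-8366799, 64853 bp from Tns3, which encodes a focal adhesion protein. Its signal was 8.29 in BCAA-control sham, 7.26 in BCAA-control TAC, 13.7 in BCAA-free sham and 3.86 in BCAA-free TAC, 3.56-fold lower (2.59 to 5.04) on the BCAA-free diet. A region near Pja1, a ubiquitin ligase gene, chrX:99497200-99506199, had 9.64, 7.09, 13.1 and 4.77, 2.75-fold lower (2.33 to 3.27). In both, BCAA-free sham was the highest library and BCAA-free TAC the lowest, which the choice by their ratio favours.

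Between the diets in sham hearts, the highest ratio by the rule was at chr12:54458800-54461599, 183775 bp from Sptssa, a subunit gene of the enzyme that starts sphingolipid synthesis. It had 3.25 in BCAA-control sham, 5.48 in BCAA-control TAC, 13.5 in BCAA-free sham and 12.5 in BCAA-free TAC, 4.16-fold higher (2.92 to 5.95) in sham hearts and 2.28-fold higher (1.71 to 3.10) in TAC hearts on the BCAA-free diet. The low library was different at chr8:11167600-11175799, 22624 bp from Col4a1, a basement membrane collagen gene, with 6.70, 15, 16.5 and 16.9. There BCAA-control sham alone was low. A second region near that gene, 40024 bp away, chr8:11153000-11158399, had 9.42, 6.58, 17.1 and 7.56, with BCAA-free sham alone high. At chr14:118068200-118071599 near Dct, a melanin synthesis gene, signal was lower on the BCAA-free diet after both operations, with 16.3, 24.3, 6.10 and 12.5.

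In TAC hearts the regions highest on the BCAA-free against the control diet included 2 near Chrm2, the main muscarinic receptor gene of the heart. The nearer, chr6:36540400-36544599, 11762 bp away, had 6.35 in BCAA-control sham, 6.48 in BCAA-control TAC, 10.4 in BCAA-free sham and 17.9 in BCAA-free TAC, 2.76-fold higher (2.24 to 3.44) in TAC hearts. By peak signal, the highest coverage in the region, that difference did not pass 1.5-fold, at a log2 ratio of 0.44. The farther, chr6:36607600-36609399, had 5.66, 3.70, 8.95 and 13.8. A region 27647 bp from Cat, the catalase gene, chr2:103512800-103515399, had 4.28, 6.45, 6.80 and 16.05, and one 20232 bp from Olfml2b, chr1:170620200-170624199, had 4.55, 5.81, 9.61 and 15.4. In all of these BCAA-free TAC was the highest library, which the choice by this ratio favours. Among the lowest ratios was that near the potassium channel gene Kcnk13, where chr12:100083000-100085199 had 10.5, 11.9, 7.91 and 4.29.

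Distal regions were next grouped by whether their nearest coding gene was on 1 of 10 gene lists. The 27 regions nearest to fibroblast genes had a median log2 ratio after TAC of 0.09 on the control diet, -0.06 when centred on all regions, and of -0.42 on the BCAA-free diet, where 13 were lower (48.1%) and 4 higher (14.8%). The 43 near matrix and TGF-beta genes had 0.08, -0.08 when centred, and -0.18, with 5 lower (11.6%) and 1 higher on the BCAA-free diet. The share lower was below the 18.6% of all distal regions. The 30 near fatty acid and glucose genes had 0.02, -0.14 when centred, and 0.48, with 9 higher and none lower on the BCAA-free diet. Of these 30, 11 were nearest to Ppargc1a, 9 of them inside its gene body, and 7 to Lpin1, so the median rests largely on these loci. The 32 near endothelial genes had 0.23, 0.08 when centred, and 0.33, with 4 (12.5%) and 5 (15.6%) higher and none lower; when centred, none was higher and 1 lower on the control diet. For comparison, the medians over all distal regions were 0.06 and -0.06, with 7.36% and 12.6% higher and 3.98% and 18.6% lower. Regions near 1 gene lie side by side and share a locus, so they are not separate observations.

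The remaining lists held fewer regions or smaller medians. The 59 regions near cardiac transcription factor genes had 0.08, -0.08 when centred, and -0.08, with 12 higher (20.3%) and 11 lower (18.6%) on the BCAA-free diet. The 62 near fetal and load stress genes had 0.04, -0.12 when centred, and 0.13, with 9 higher (14.5%, near the 12.6% of all distal regions) and 3 lower on the BCAA-free diet. The 6 near cardiomyocyte genes had 0.36 and 0.59, and 3 of these were higher on the BCAA-free diet. Among them chr13:12120400-12136999, 13455 bp from Ryr2, the calcium release channel gene of cardiomyocytes, had 13.6 in BCAA-control sham, 18.1 in BCAA-control TAC, 17.3 in BCAA-free sham and 31.7 in BCAA-free TAC, 1.33-fold (1.22 to 1.44) and 1.83-fold higher (1.71 to 1.96) after TAC. The 8 near BCAA and propionyl-CoA genes had 0.25 and 0.05, with 2 higher and 2 lower on the BCAA-free diet. The 10 near macrophage genes had 0.07, -0.08 when centred, and -0.05, which was 0.03 by peak signal, and the 1 near smooth muscle genes, by Rgs5, had -0.38 and -0.42.

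Loci of 1 list could go opposite ways. Of the listed genes 20 were nearest to at least 5 distal regions, a number chosen after the data had been seen, and 19 of those loci are shown in the plot of responses by nearest gene. Tcf21, a transcription factor gene of the fibroblast and epicardial lineage, had 5 distal regions 20657 to 99457 bp away. Their signals ranged from 4.48 to 8.32 in BCAA-control sham, 3.8 to 6.71 in BCAA-control TAC, 6.41 to 11.1 in BCAA-free sham and 2.48 to 5.31 in BCAA-free TAC. All 5 were at least 1.5-fold lower after TAC on the BCAA-free diet (median log2 ratio -1.01, range -1.14 to -0.76), and none passed on the control diet (median -0.27). The region assigned to Tcf21 itself had 15.7, 14.1, 21.2 and 10.7, a log2 ratio of -0.92 on the BCAA-free diet.

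Postn, the gene of the matrix protein periostin made by activated fibroblasts, is on the same list and its regions went the other way. Its 7 distal regions ranged from 2.40 to 7.16 in BCAA-control sham, 5.98 to 11.6 in BCAA-control TAC, 1.75 to 8.28 in BCAA-free sham and 3.06 to 9.43 in BCAA-free TAC. All 7 had higher signal after TAC on both diets, with medians of 0.81 (5 past 1.5-fold) on the control and 0.56 (3 past 1.5-fold) on the BCAA-free diet. The weakest of them had mean signals of 3.71, 3.96 and 4.75, below the 5th percentile of distal regions (5.01), so their ratios rest on low signal. The weakest near Tcf21, at 4.29, was below it too. The region assigned to Postn itself had 7.88, 9.73, 6.84 and 7.91, log2 ratios of 0.27 and 0.19. Meis1, a homeobox gene that restrains cardiomyocyte division, had 5 distal regions with medians of 7.59, 5.54, 8.52 and 5.12, all at least 1.5-fold lower after TAC on the BCAA-free diet (median -0.74), while its own region had 23.6, 24.5, 25.4 and 23.2. The distal regions near Meis1 thus differed after TAC where its own region did not reach 1.5-fold.

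**Figure D3:**
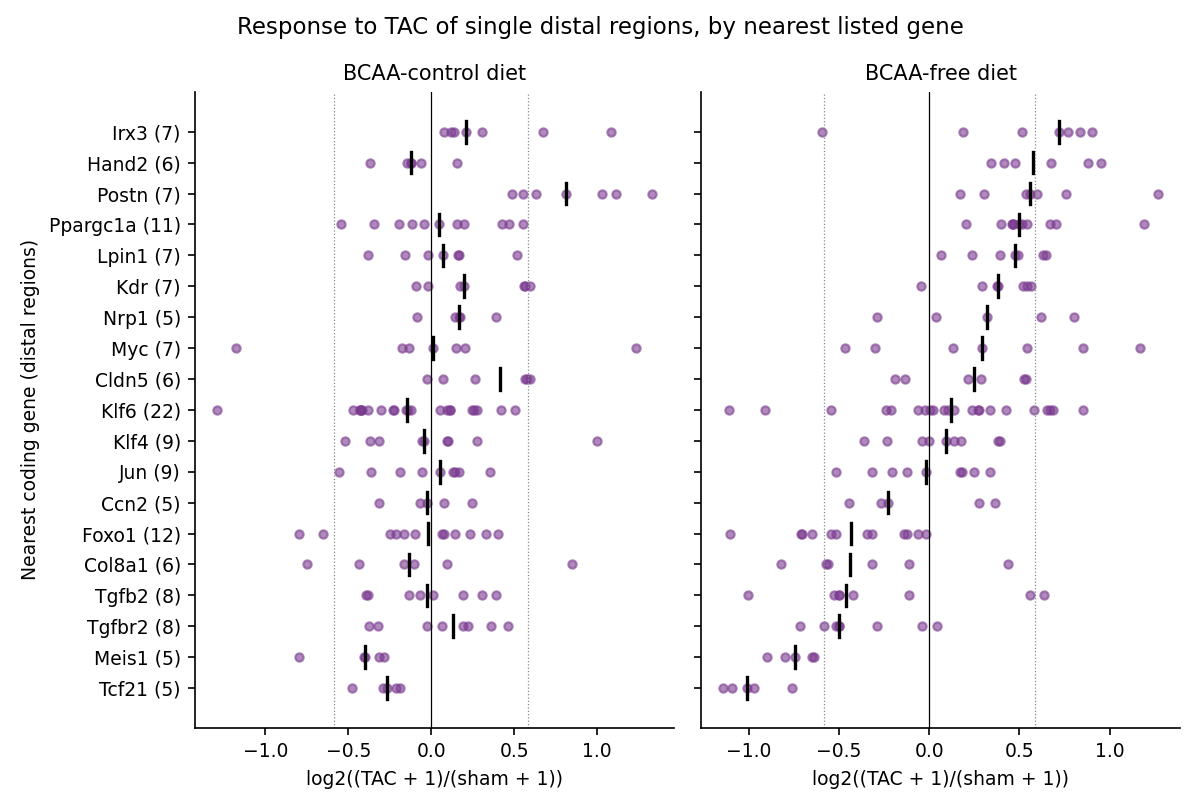
Log2 ratio of average signal (plus 1) in TAC against sham for single distal regions, by nearest coding gene with the number of regions in brackets, on the BCAA-control diet (left) and the BCAA-free diet (right); black bars are medians and dotted lines mark 1.5-fold. Regions near Tcf21 and Meis1 lie past the lower line on the BCAA-free diet, and all regions near Postn, Hand2, Ppargc1a and Lpin1 lie above 0 there.

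Hand2, a transcription factor gene of heart development, had 6 distal regions 105384 to 212584 bp away. Their medians were 5.03 in BCAA-control sham, 4.72 in BCAA-control TAC, 6.12 in BCAA-free sham and 10.8 in BCAA-free TAC. All 6 were at least 1.5-fold higher on the BCAA-free than on the control diet in TAC hearts (median log2 ratio 1.03, range 0.60 to 1.23), while the region assigned to Hand2 had 16.6, 15.3, 19.96 and 18.5. Ppargc1a, the gene of the mitochondrial biogenesis coactivator PGC-1alpha, had 11 distal regions, of which 9 lie inside its long RefSeq gene body. Their medians were 7.0, 6.44, 6.07 and 9.23, all 11 were above 0 after TAC on the BCAA-free diet (median 0.50, 3 past 1.5-fold) and its own region had 9.26, 8.34, 8.23 and 13.3. The 7 regions nearest to Lpin1, which encodes the lipid phosphatase lipin 1, had a median of 0.48 on that diet, and the 12 near Foxo1, a stress-responsive transcription factor gene, one of -0.43 with all 12 below 0. Near Irx3, a conduction system transcription factor gene, 6 of 7 regions were above 0 on the BCAA-free diet (median 0.72). The 22 regions near Klf6, the most for any of these loci, were mixed, with 15 above and 7 below 0.

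Signal at marker genes of heart cell types also differed between the libraries. Summed over the regions assigned to 11 of 11 fibroblast markers, signal was 130 in BCAA-control sham, 127 in BCAA-control TAC, 171 in BCAA-free sham and 106 in BCAA-free TAC. The 12 of 12 cardiomyocyte markers summed to 153, 176, 158 and 228, and the 10 of 10 endothelial markers to 199, 242, 158 and 201. The 7 of 7 smooth muscle and pericyte markers gave 82.3, 93.3, 76.2 and 73.1, and the 6 of 7 macrophage and immune markers with a region 104, 125, 103 and 85.8, with no region for Adgre1. Of 6 markers of other organs 2 had a region, and Alb, Ins2, Krt5 and Neurod1 had none. The fibroblast sum was highest in BCAA-free sham and lowest in BCAA-free TAC, the order also seen near Tcf21. It was not seen near Postn, with distal medians of 4.06, 7.86, 3.20 and 6.95 in the same order of libraries. The cardiomyocyte sum was highest in BCAA-free TAC, as near Ryr2. Tcf21, Postn and Ryr2 are themselves among the summed markers. Distal regions near Hand2 and Ppargc1a, which are not, also had their highest median there, but the region assigned to Hand2 was highest in BCAA-free sham. Medians near Myc (10.6), a fetal and load stress gene, and Ccn2 (10.3), a matrix gene, were highest in BCAA-free TAC as well. Near Foxo1 and Meis1, on the same list as Hand2, the highest medians were in BCAA-free sham (9.38 and 8.52). The order was thus not particular to cardiomyocyte loci. The part of cell composition in these results was not tested.

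Distal regions often lay beside one another. The nearest other region was a median of 9401 bp away, and it was another distal region without a gene for 4337 members (67.4%) and a promoter region for 1318 (20.5%). Adjacent pairs of distal regions had a median gap of 14001 bp, against 10601 bp for adjacent pairs of intragenic regions, so close packing was not particular to distal regions. Neighbouring distal regions had related ratios. Across 3859 adjacent pairs Pearson's r of the log2 ratio after TAC on the BCAA-free diet was 0.49. It was 0.72 for 455 pairs under 2 kb apart, 0.48 for 1457 pairs at 10 to 50 kb, 0.34 at 50 to 100 kb and 0.14 for 63 pairs at 500 kb or more. Pairs of intragenic regions gave 0.75, 0.45, 0.37 and 0.23 at the same gaps. A distal region and an adjacent region of another kind gave 0.66, 0.40, 0.24 and 0.03. These are descriptions across pairs, which share libraries and, when close, may be parts of 1 broader domain.

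**Figure D4:**
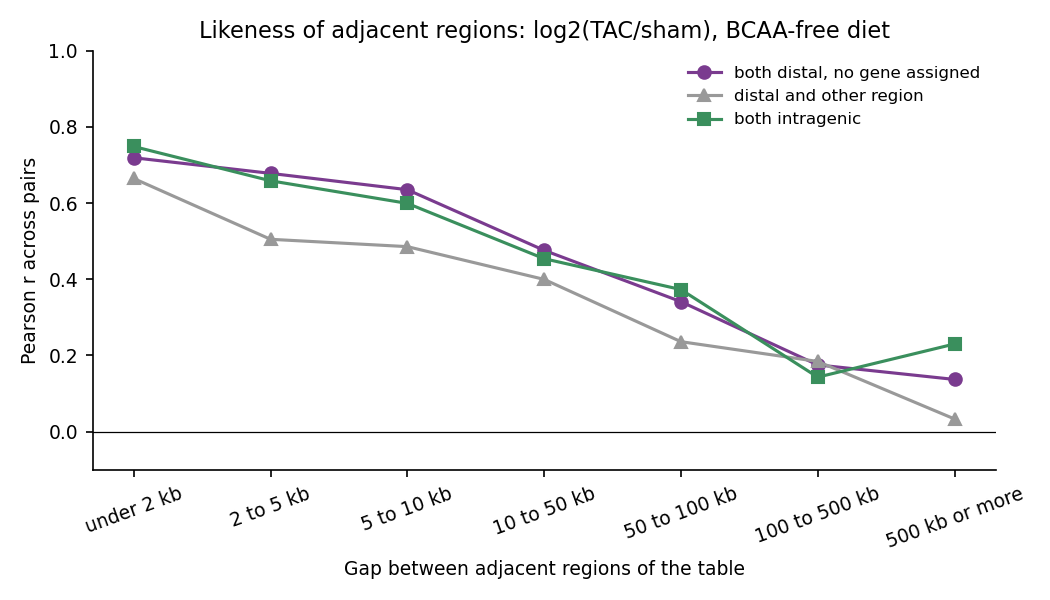
Pearson r of the log2 ratio after TAC, BCAA-free diet, between regions adjacent in the table, by the gap between them, for pairs of distal regions, distal regions beside another kind of region, and pairs of intragenic regions. For distal pairs r falls from 0.72 under 2 kb to 0.14 at 500 kb or more.

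Joining consecutive distal regions with gaps under 100 kb gave 2983 runs, of which 1606 held a single region and 40 held 10 or more. The longest held 18 regions over 418 kb, chr4:105880000-106297999, and Usp24, a deubiquitinase gene, was the nearest coding gene. Median signal in the run was 7.25 in BCAA-control sham, 5.4 in BCAA-control TAC, 8.89 in BCAA-free sham and 5.59 in BCAA-free TAC. The BCAA-free sham library was above BCAA-control sham in 15 of 18 regions, and both TAC libraries had the lower medians. After TAC 13 of 18 were at least 1.5-fold lower and 1 higher on the BCAA-free diet (median log2 ratio -0.86), and 3 were lower on the control diet (median -0.36).

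The strongest region of that run, chr4:106183800-106208199, had 18.1 in BCAA-control sham, 14.4 in BCAA-control TAC, 29.7 in BCAA-free sham and 15.3 in BCAA-free TAC. Signal was higher after TAC on the BCAA-free diet in 2 of the 18 regions. The first, chr4:105880000-105881399, had 6.89, 7.11, 5.64 and 14.0, and the other, chr4:106254600-106264799, had 9.21, 9.20, 7.94 and 11.5, a log2 ratio of 0.48. The next region to the right, which holds the promoter of Usp24, had a log2 ratio of -0.09 after TAC on the BCAA-free diet, and the next to the left, 371601 bp away, one of 0.61. The pattern of the run was thus not seen in either flanking region.

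**Figure D5:**
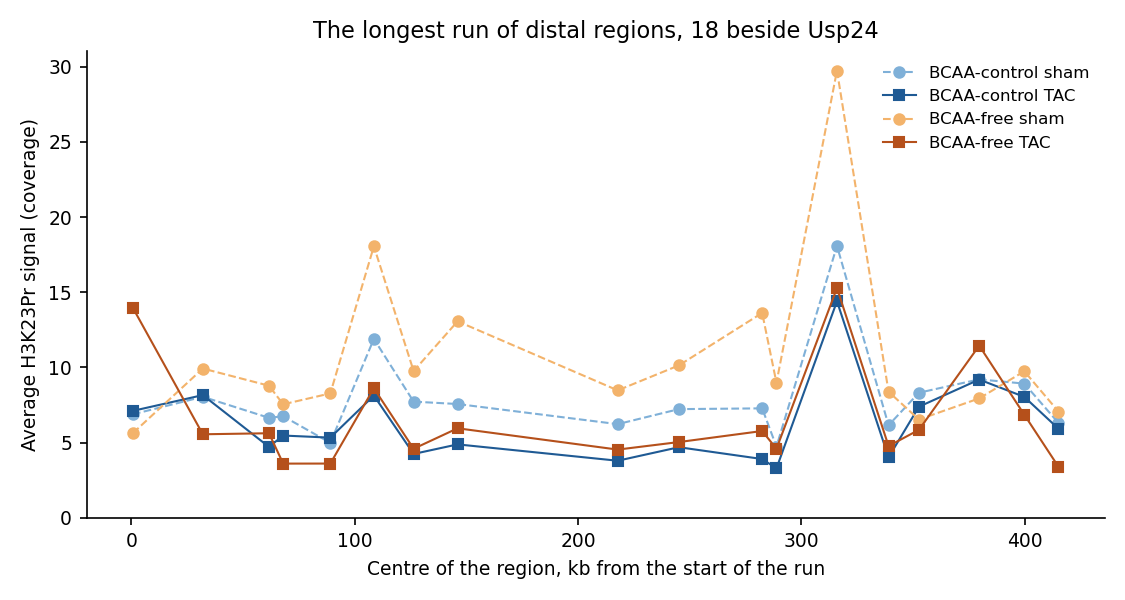
Average H3K23Pr signal (coverage, linear axis) of the 18 regions in the longest run of distal regions, by distance of each region's centre from the start of the run in kb; circles with dashed lines are sham and squares with solid lines TAC libraries, blue is the BCAA-control and orange the BCAA-free diet. BCAA-free sham is the top line over most of the run and reaches 29.7, and BCAA-free TAC is the top library in the first region and in one near 380 kb.

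The other long runs differed from it. The second, 16 regions over 277 kb at chr10:95582000-95858799 near Eea1, an endosomal tethering protein gene, and Nudt4, had medians of 7.53, 8.48, 6.84 and 8.75, and 14 of 16 regions were above 0 after TAC on the BCAA-free diet (median 0.47, 5 past 1.5-fold). The third, 15 regions over 559 kb at chr14:24789600-25348399 near Zmiz1 and Rps24, had 7.98, 8.83, 9.21 and 7.41, and a median of -0.15 with 4 lower and none higher on that diet. In the second BCAA-free TAC was thus the highest library by median and in the third BCAA-free sham was.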

How the data were processed

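H3K23Pr ChIP-seq was analysed in 4 heart libraries, 1 per group. Per the submitters' processing notes BWA, MACS2 and build mm10 were used; their versions and roles are not given in the sources used here. Per the file headers, the deposited table gives for each merged region the average and peak signal (coverage) of each library, the libraries that called it and the authors' log2 ratios of average signal, which equalled recomputed plain ratios to within 8.88e-16. Scaling between libraries is not given in the sources used here, and no input was subtracted. The deposited maximum tag signal equals average signal times length divided by 224, and the same divisor gave approximate tags. Over all regions these came to 16.9 megatags in BCAA-control sham, 18.9 in BCAA-control TAC, 17.0 in BCAA-free sham and 17.1 in BCAA-free TAC. If tags were scaled, true numbers differ by that factor.

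Log2 ratios used a pseudocount of 1, which understates ratios at low signal, and 1.5-fold as threshold. Named regions carry plain ratios with exact 95% Clopper-Pearson intervals from tags, which cover counting error only. With 1 library a group no p-value was computed.

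Named were the 4 highest and 4 lowest ratios per comparison among regions at or above the median signal of distal regions, with at least 100 tags in the higher library and the same direction by peak signal, the 5 strongest, the 3 longest, the 3 longest runs and up to 3 regions per gene list. The 6 per direction on both diets and the farthest regions were added after the data had been seen, as were loci with 5 or more regions. Of 77 regions so named, 3 are not reported here, nor are others the rule gives with less to show. Regions and lists were chosen with earlier results of these data known. Of 205 listed genes 203 were matched in RefSeq GRCm38.p6, whose coordinates are those of mm10. The listed starts do not cover every gene, so a region without a listed start may still hold one. Distances to genes and overlaps with them were read from gene bodies. No genome was used, so the sequence of the regions themselves was not read. Scripts (Python 3.11.15, pandas 2.3.3, NumPy 2.4.6, SciPy 1.17.1) were tested on simulated data. Alternatives were pseudocounts of 0.1 and 5, peak signal, stronger regions, centring, regions called in all 4 libraries and, added later, stricter distance.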

Additional observations from a re-analysis of the deposited data

Results flagged for a closer look

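The results below had opposite signs after TAC on the 2 diets; with 1 library a group the difference itself was not tested. Each value is the BCAA-free log2 ratio after TAC with the control diet ratio subtracted, taken between medians for groups of regions. It was -0.12 for all distal regions (0.06 on the control and -0.06 on the BCAA-free diet). It was -0.51 near fibroblast genes, -0.26 near matrix and TGF-beta genes, -0.16 near cardiac transcription factor genes and -0.12 near macrophage genes. When centred on all regions, the control diet medians of these lists were negative too, so the signs no longer differed.

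Single regions that passed 1.5-fold in opposite directions were the following. The region chr6:5565600-5567599 lies near Pdk4, the gene of a kinase that holds back glucose oxidation. Its signal was 6.61 in BCAA-control sham, 2.70 in BCAA-control TAC, 5.13 in BCAA-free sham and 9.71 in BCAA-free TAC, a difference of 1.85. No library reached the minimum number of tags used for naming regions by ratio, so this difference rests on few tags. The region chr13:5369600-5370199 near Klf6 had 12.3, 4.44, 4.63 and 9.16, a difference of 2.14 that rests on 11.9 to 32.9 tags per library. The region chr16:62634000-62635999 near Nsun3 had 11.4, 5.86, 4.77 and 9.79, a difference of 1.75. There only the BCAA-control sham library reached the minimum number of tags. The region chr11:30719800-30722999 near Psme4 had 18.8, 12.1, 7.97 and 13, a difference of 1.24. The region chr8:91768000-91769599 near Irx3 had 2.98, 7.42, 3.89 and 2.23, a difference of -1.68. Its mean signal of 4.13 was below the 5th percentile of distal regions (5.01), so this difference too rests on low signal.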

How the results depend on the processing

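Numbers of distal regions higher and lower are given in the order TAC response (control diet), TAC response (BCAA-free), diet effect in sham hearts and diet effect in TAC hearts. They are out of 6431 unless another number is given. Shares of all regions were not computed under these settings. With a pseudocount of 5 the counts were 144 and 30, 198 and 433, 80 and 42, and 118 and 187. The median log2 ratio was then 0.044 for the TAC response (control diet) and -0.082 for the diet effect in TAC hearts, and the median difference of the TAC response between diets was -0.11. With a pseudocount of 0.1 the latter median was -0.14 and the difference -0.17. By peak signal the counts were 1077 and 430 for the TAC response (control diet) and 729 and 656 for the diet effect in sham hearts, with 1650 lower for that in TAC hearts. The medians were 0.15, -0.10, 0 and -0.26, and the difference -0.29. Among the 1832 distal regions at or above the median signal of all regions the counts were 88 and 17, 174 and 256, 76 and 37, and 61 and 162. The shares were 4.80% and 0.93%, 9.50% and 14.0%, 4.15% and 2.02%, and 3.33% and 8.84%. Medians were 0.11, -0.036 and 0.035 for all but the diet effect in TAC hearts. Centred on the median of all regions, the counts were 255 and 557 for the TAC response (control diet) and 804 and 261 for the diet effect in TAC hearts, so these splits turned round. The medians were then -0.092 and 0.080, that of the BCAA-free TAC response -0.034, and the difference 0.025. By construction this subtracts the shift of all regions. Among the 2418 distal regions called in all 4 libraries the counts were 60 and 23, 184 and 294, 84 and 24, and 63 and 107. The shares were 2.48% and 0.95%, 7.61% and 12.2%, 3.47% and 0.99%, and 2.61% and 4.43%. Medians were -0.036 for the BCAA-free TAC response and -0.092 for the diet effect in TAC hearts, with a difference of -0.12. The correlation of adjacent regions was 0.38 at gaps of at least 10 kb, against 0.49. Fewer regions entered under the stricter choices of signal and calls, and the cause of the other moves was not tested. The 5442 distal regions at least 10 kb from coding genes and without a listed start were a choice added after the data had been seen. They gave 420 and 233 (7.72% and 4.28%) for the TAC response (control diet) and 713 and 1044 (13.1% and 19.2%) for the TAC response (BCAA-free). No paired analysis was possible because each group has 1 library, and for the same reason no replicate could be left out. The median of 146 tags per distal region limits single ratios.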
